A study of Mus musculus with 8 samples.

Results

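Mecom and 8 further genes of the PRDM family (Prdm16, Prdm1, Prdm2, Prdm4, Prdm6, Prdm8, Prdm10 and Prdm15) were examined in a list of genomic sites occupied by ASH2L in mouse embryo fibroblasts. The genes were chosen from the width of a site at Mecom, so widths, covered bases and promoter counts of these genes are given as a description and no test was run on them. A site was counted for a gene when its centre lay within 10 kb of any annotated transcription start site (TSS) of that gene or when it overlapped the gene body. By this rule 20 of the 6444 sites of the list belonged to the 9 genes, and 9 of 21938 protein-coding genes were thus under study.

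ASH2L is a subunit of the COMPASS/KMT2 complexes, which methylate histone H3 at lysine 4. The ChIP-seq experiment used immortalised mouse embryo fibroblasts (iMEF) that had carried floxed Ash2l alleles and a Cre-ER recombinase. In these cells endogenous Ash2l was deleted and replaced by human ASH2L with an N-terminal FKBP12F36V degron and HA tags, expressed from a lentiviral construct, and the study describes mainly work on 1 such clone. All groups therefore shared the deletion and the fusion protein. There were 8 libraries in 4 groups of 2 replicates. The groups were ASH2L precipitated from cells without dTAG, ASH2L precipitated after 1 h of dTAG, the compound that recruits the fusion protein for degradation, and the matching input chromatin of each. The labels name Ash2l as the antibody, and the methods state that antibodies to the HA tag were used. The list analysed here is the set of sites found across all samples. It gives a chromosome, a start and an end per site, with no signal, no count and no column per library. Depth, replicate error and the response to dTAG at a site were therefore not analysed here, and marker genes of the cells could not be checked.

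PRDM proteins carry a PR domain, which is related to the SET domain of histone methyltransferases, followed in most members by zinc fingers that bind DNA. Mecom is transcribed from separate starts. The upstream start gives the long form, MDS1-EVI1 (PRDM3), which contains the PR domain, and the downstream start gives the short form, EVI1, which lacks it and is known as an oncoprotein in myeloid leukaemia. Prdm16 is the closest relative of Mecom and is known for its role in brown fat and in blood stem cells.

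The sequences at which the sites and the starts meet are shown first, because the results turn on where the sites end relative to the start. All 4 windows are promoter windows from RefSeq (GRCm38.p6, the patch release of mm10), reaching from 250 bases before to 50 bases after the RefSeq start, written 5′ to 3′ on the minus strand on which these genes lie. Capitals mark the bases inside an ASH2L site. The window of the long form of Mecom (chr3:30509710-30510009) had 235 of 300 bases in a site, and the start itself lay in the lower-case part. The window of the short form (chr3:30013155-30013454) had 211 bases in a site. The downstream of 2 windows of Prdm4 (chr10:85916680-85916979) is an example of a narrow site at a promoter dense in CpG, with 206 bases in a site. The other window of Prdm4 (chr10:85916937-85917236), not printed, had 0 bases in a site and 32 CpGs. The window of Prdm16 (chr4:154636824-154637123) had none.
Mecom long form: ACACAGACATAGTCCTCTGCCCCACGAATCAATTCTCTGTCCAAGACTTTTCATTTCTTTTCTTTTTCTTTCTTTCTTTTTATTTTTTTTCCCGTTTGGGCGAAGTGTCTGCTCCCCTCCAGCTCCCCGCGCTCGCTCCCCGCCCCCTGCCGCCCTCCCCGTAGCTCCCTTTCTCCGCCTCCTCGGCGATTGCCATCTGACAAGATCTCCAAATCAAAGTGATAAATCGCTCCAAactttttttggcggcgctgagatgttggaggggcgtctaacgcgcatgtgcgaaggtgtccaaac
Mecom short form: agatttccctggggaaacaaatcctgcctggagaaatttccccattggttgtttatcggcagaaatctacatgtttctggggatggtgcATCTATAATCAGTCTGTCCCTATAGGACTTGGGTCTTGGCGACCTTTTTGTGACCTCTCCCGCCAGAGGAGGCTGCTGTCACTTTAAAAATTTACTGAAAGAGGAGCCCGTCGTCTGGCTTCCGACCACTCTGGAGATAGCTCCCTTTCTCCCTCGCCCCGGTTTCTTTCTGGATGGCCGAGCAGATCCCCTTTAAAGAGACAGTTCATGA
Prdm4: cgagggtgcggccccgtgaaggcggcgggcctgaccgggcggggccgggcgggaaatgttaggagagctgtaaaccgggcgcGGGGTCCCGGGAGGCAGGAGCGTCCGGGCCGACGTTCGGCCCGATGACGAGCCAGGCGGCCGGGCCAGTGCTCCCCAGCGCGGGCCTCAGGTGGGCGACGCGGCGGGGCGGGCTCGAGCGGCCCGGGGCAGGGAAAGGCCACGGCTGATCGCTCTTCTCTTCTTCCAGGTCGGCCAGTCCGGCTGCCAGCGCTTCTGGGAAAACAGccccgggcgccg
Prdm16: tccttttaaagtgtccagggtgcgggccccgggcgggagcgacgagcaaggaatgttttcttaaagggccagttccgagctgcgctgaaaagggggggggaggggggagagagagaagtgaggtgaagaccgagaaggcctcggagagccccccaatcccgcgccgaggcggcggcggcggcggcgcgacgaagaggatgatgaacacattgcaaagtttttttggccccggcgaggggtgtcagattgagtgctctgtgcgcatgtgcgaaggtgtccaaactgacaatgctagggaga

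These windows differed in their content of CpG dinucleotides, which are rare in most of the genome but frequent in CpG islands. The Prdm4 window held 40 CpGs at a GC content of 75.3%, the Prdm16 window 24 at 61%, the window of the long form of Mecom 19 at 52% and that of the short form 9 at 49.7%. The window without a site thus held more CpGs than either Mecom window.

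Mecom (ENSMUSG00000027684.16, chr3:29951296-30548008, minus strand, 597 kb, 16 distinct TSSs of 17 transcripts in GENCODE M21) held 14 of the 20 sites. They covered 14048 bp, which was 85.1% of the bases covered at the 9 genes and 0.624% of the 2250 kb covered by all sites. By covered bases Mecom ranked 6 among all protein-coding genes, also when only sites within 10 kb of a TSS were counted (13404 bp). The rank was 15 with sites centred within 1 kb of a TSS only and 405 per length of the searched windows. The genes next above were Tbx15 with 15476 bp in 12 sites and Hoxa11 with 14578 bp in 13 sites. Those next below were Hoxd13 with 13304 bp in 18 sites and Hoxd10 with 13283 bp in 6 sites. The likeness is in covered bases only. A site was counted for every gene that met the rule, so neighbouring genes, such as those of a Hox cluster, can share sites. The ranks are thus not ranks of separate loci. All 4 encode transcription factors, and Mecom at 597 kb is a far longer gene than Tbx15 at 114 kb or Hoxa11 at 3.71 kb. Only 7 protein-coding genes had more sites than Mecom, whereas the median gene with any site had 1.

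The 14 Mecom sites fell mainly into clusters at some of its starts. Of these sites, 7 lay around the start of the long form, 4 at and downstream of the start of the short form, 492 kb away, and 3 in introns between. Among the 16 TSSs, 6 had a site centred within 1 kb and 7 lay inside a site. The 5 starts farthest from these clusters had no site centred within 10 kb. The most downstream starts, at 29997663 and 29997702, both of protein-coding transcripts, were 7.46 and 7.42 kb from the nearest site centre.

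At the start of the long form the sites were nearly continuous. From upstream to downstream they were a 282-bp site (chr3:30515795-30516076), a 3369-bp site (chr3:30512158-30515526), sites of 285 bp (chr3:30511863-30512147), 322 bp (chr3:30511141-30511462) and 252 bp (chr3:30510733-30510984), an 860-bp site (chr3:30509775-30510634) and a 4250-bp site (chr3:30505441-30509690). Together they filled 9620 of 10636 bp, or 90.4% of the span, with gaps of 10 to 400 bp. The 4250-bp site ranked 4 by width among the 6428 sites on assembled chromosomes and the 3369-bp site ranked 12, against a median width of 268 bp.

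**Figure D1:**
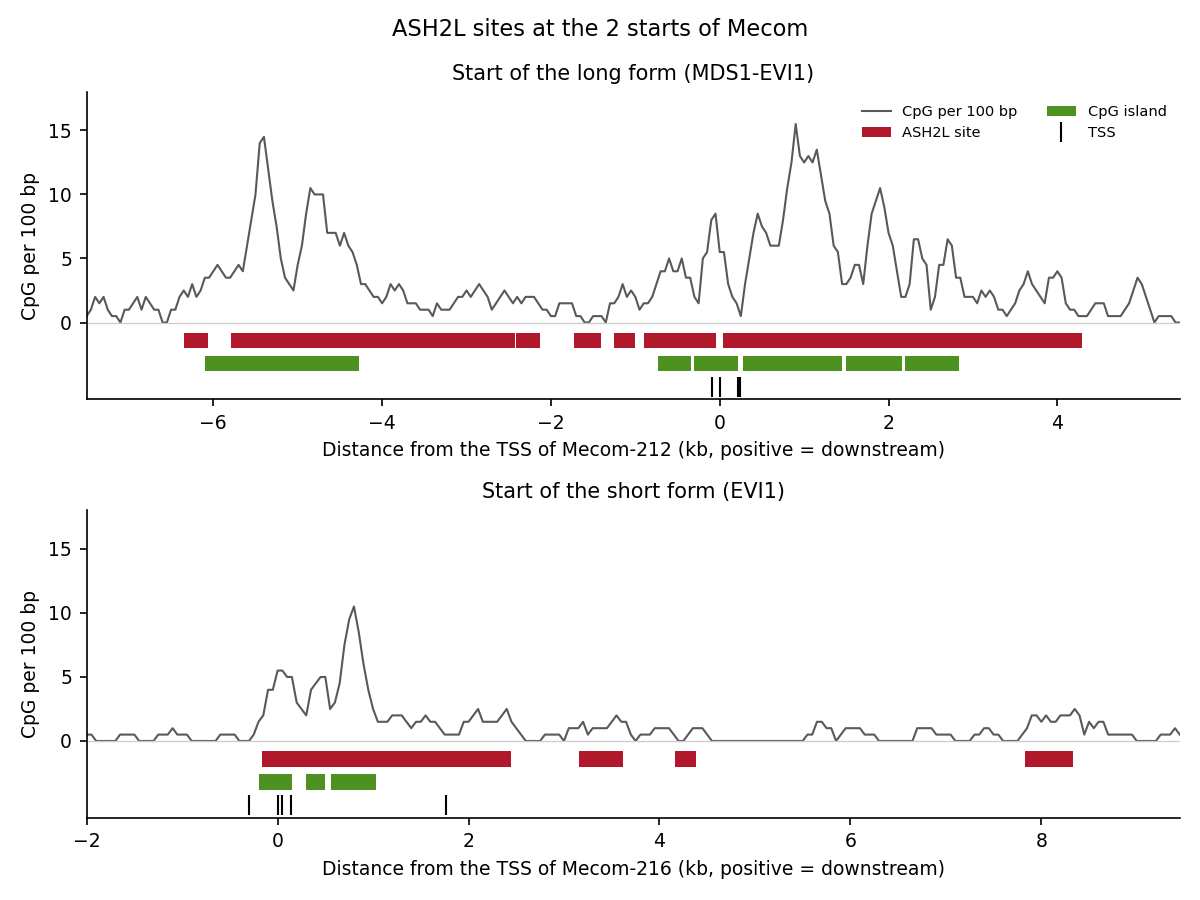
Positions of ASH2L sites (red), CpG islands (green) and annotated TSSs (black ticks) against the distance in kb from the TSS of Mecom-212 (upper panel) and Mecom-216 (lower panel), with the number of CpGs per 100 bp in sliding windows of 200 bp as a grey line. At the start of the long form 7 sites fill 90.4% of 10636 bp and leave an 84-bp gap at the TSS, and at the short form a 2601-bp site spans 4 TSSs.

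The widest site began just downstream of the RefSeq start and ran into an intron. Of the 4 TSSs in this span, those at 30509487 (Mecom-209) and 30509514 (Mecom-213) lay inside the 4250-bp site and that at 30509822 (Mecom-207) inside the 860-bp site. The TSS at 30509733, shared by Mecom-211 and Mecom-212, lay in the gap of 84 bp between these sites (30509691 to 30509774), 42 bp from the nearest edge. The RefSeq start at 30509759 fell in the same gap. Within 1 kb of the TSS at 30509733, 90.9% of bases were nevertheless covered. In the whole list 159 neighbouring sites were at most 100 bp apart, and 14 of these gaps held a TSS. The centre of the 4250-bp site lay 1921.5 bp downstream of the nearest TSS, so that by its centre it did not count as a promoter site although it contains 2 TSSs and coding sequence.

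The widest site held 209 CpGs (4.92 per 100 bp) at a GC content of 55.5% and a ratio of observed to expected CpGs of 0.645, and 62.5% of its bases lay in CpG islands. Its densest 200 bases, in an intron (chr3:30508739-30508938, minus strand), contained 32 CpGs at 75% GC. They are shown because the red bar of the widest site covers this peak of the CpG profile, and all bases are in the site.
Mecom widest site: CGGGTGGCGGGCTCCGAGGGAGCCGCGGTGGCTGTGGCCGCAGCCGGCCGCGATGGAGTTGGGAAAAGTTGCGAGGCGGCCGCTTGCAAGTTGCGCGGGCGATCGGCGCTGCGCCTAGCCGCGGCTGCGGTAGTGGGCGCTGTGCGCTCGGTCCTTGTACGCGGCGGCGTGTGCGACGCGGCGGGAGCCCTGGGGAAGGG

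The second wide site of this cluster had no annotated TSS of Mecom within it. The 3369-bp site was centred 4020 bp upstream of the nearest TSS, in an intron of the transcript that starts farthest upstream, with 145 CpGs, a GC content of 50.2%, an observed to expected ratio of 0.683 and 45% of its bases in islands. The 4 narrow sites of the cluster, of 252 to 322 bp, had observed to expected ratios of 0.107 to 0.484, and of these only the 282-bp site touched an island, with 34 bp. Over the whole span 4865 of 5217 island bases lay in a site.

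At the start of the short form a 2601-bp site (chr3:30010765-30013365, rank 30 by width) covered the TSSs at 30011439, 30013061, 30013156 and 30013204. The TSS at 30013505 (Mecom-202) lay 140 bp outside. The site ended 161 bp upstream of the RefSeq start, which is the boundary between lower case and capitals in the printed window. It was poorer in CpGs than the wide sites of the long form, with 80 CpGs (3.08 per 100 bp), 46.2% GC, an observed to expected ratio of 0.58 and 37.9% of its bases in islands. Downstream of it lay a 456-bp site (chr3:30009590-30010045) centred in coding sequence, and intronic sites of 219 bp (chr3:30008823-30009041) and 508 bp (chr3:30004870-30005377). None of these 3 touched an island. The antisense gene Mecomos (ENSMUSG00000085702.8, chr3:30012379-30054808, plus strand) starts inside the 2601-bp site, 314 bp from its centre, so this site cannot be ascribed to Mecom alone.

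The 3 sites between the clusters were narrow. They measured 224 bp (chr3:30105450-30105673) and 200 bp (chr3:30105705-30105904), 31 bp apart, and 220 bp (chr3:30157442-30157661). All lay in introns at least 17.1 kb from any Mecom TSS, with no island and observed to expected ratios of 0.235, 0.327 and 0.293. The 220-bp site was closer to another gene, Gm38066, with a TSS 4334.5 bp from the centre of the site. The 200-bp site had the minimum width of the list, which 1280 sites share. These 3 were counted only because they lie in the gene body. The next site beyond the Mecom rule was 54.8 kb from a Mecom TSS.

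Few genes had several wide sites. Of 34 sites over 2500 bp in the list, 3 belonged to Mecom, and 4 protein-coding genes including Mecom had at least 3. Neighbouring genes can share sites in this count. The 34 sites had a median observed to expected ratio of 0.682 (range 0.368 to 1.03), a median GC content of 55.2% and a median island share of 59.2%. The 3 wide Mecom sites, with ratios of 0.58 to 0.683, GC contents of 46.2% to 55.5% and island shares of 37.9% to 62.5%, fell inside this range of ratios.

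**Figure D2:**
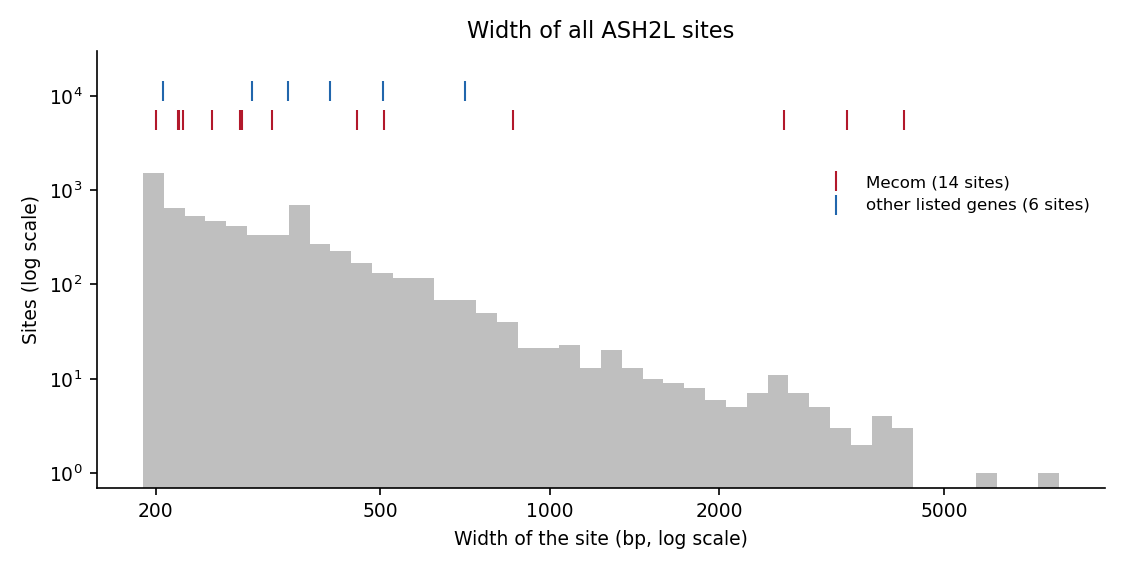
Histogram of the width of all 6428 sites on assembled chromosomes (grey, both axes logarithmic), with a tick for each of the 14 Mecom sites (red) and the 6 sites of the other listed genes (blue). Apart from 3 Mecom sites of 2601, 3369 and 4250 bp and a Mecom site of 860 bp, the ticks lie between 200 and 708 bp, where most sites of the list also lie (median 268 bp, minimum 200 bp).

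The other listed genes held 6 sites in all, of 206 to 708 bp, covering 2469 bp. By promoter sites, meaning sites centred within 1 kb of a TSS, 5 of the 9 listed genes were occupied (Mecom, Prdm2, Prdm4, Prdm10 and Prdm15), against 14.0% of all protein-coding genes. By the wider rule 6 of 9 had a site, against 21.5% of all protein-coding genes. Because the genes were chosen with these sites known, nothing is read from either comparison.

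Prdm15, a zinc finger factor of early embryonic development, had the widest of these sites. It measured 708 bp (chr16:97851073-97851780), was centred 199.5 bp upstream of the nearest TSS, covered the TSS of Prdm15-201 and overlapped coding sequence. Its GC content was 73.9%, its observed to expected ratio 0.832, and 91.7% of its bases lay in islands. The TSS of Prdm15-210 lay 3 bp beyond its edge.

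Prdm10 had 2 sites, both in an intron downstream of its upstream start. The nearer, of 507 bp (chr9:31280911-31281417), was centred 615 bp downstream of the TSS and lay wholly in an island with a GC content of 73.8% and a ratio of 1.01. The farther, of 297 bp (chr9:31281593-31281889), was centred 1192 bp downstream and had a GC content of 46.1% and a ratio of 0.452. The start of the neighbouring gene 4930517E14Rik was 172 bp from the centre of the nearer site and 749 bp from that of the farther. In each case it was closer than the start of Prdm10, so neither site can be told apart between these genes.

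Prdm2 (also named RIZ), a PR domain protein described as a tumour suppressor, had a 407-bp site (chr4:143212281-143212687) that began 18 bp downstream of the TSS of Prdm2-201. This site had the highest CpG content of the 20, with 65 CpGs (16 per 100 bp), 77.1% GC and a ratio of 1.11, and lay wholly in an island. Prdm4 had a 206-bp site (chr10:85916692-85916897), centred 131.5 bp downstream of the TSS of Prdm4-201, with 74.3% GC and a ratio of 0.891. Its 206 bases are the capitals in the printed Prdm4 window. Neither the Prdm2 nor the Prdm4 site included a GENCODE TSS, but the Prdm4 site included the RefSeq start of the printed window.

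Prdm1, which encodes Blimp-1, a repressor known for plasma cell and germ cell development, had a 344-bp site (chr10:44529654-44529997) only outside the gene. It was centred 1324.5 bp upstream of the nearest TSS, which belongs to a transcript with a retained intron, and 71.1 kb from the TSS of Prdm1-201. It overlapped an island over 78.2% of its bases, with a GC content of 49.4% and a ratio of 0.648. The sites just beyond the rule lay 40.5 kb from Prdm4, 81.2 kb from Prdm15 and 95.2 kb from Prdm1.

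**Figure D3:**
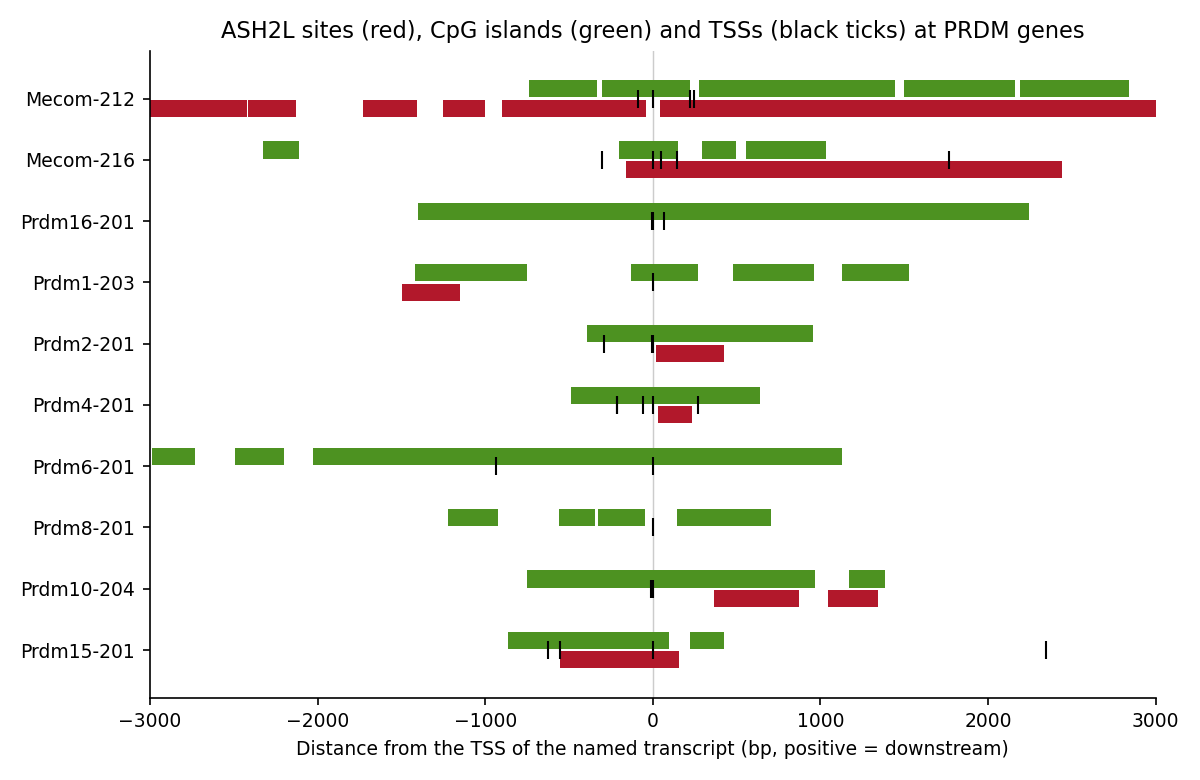
ASH2L sites (red), CpG islands (green) and TSSs (black ticks) within 3000 bp of a TSS of the 9 listed genes, on an axis of distance in bp from the TSS of the named transcript, with bars clipped at the ends of the axis. Red bars flank or span the TSS of the named transcript at Mecom and Prdm15, lie downstream of it at Prdm2, Prdm4 and Prdm10 and upstream at Prdm1, and are missing at Prdm16, Prdm6 and Prdm8.

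Prdm16, Prdm6 and Prdm8 had no site by the rule. Prdm16 (ENSMUSG00000039410.16, chr4:154316125-154636873) was the clearest contrast to Mecom. The nearest site, of 368 bp (chr4:154908515-154908882), was 272 kb upstream of its TSS, while the longest CpG island at a Prdm16 TSS measured 3645 bp. That island is longer than any single one at Mecom TSSs, where the longest was 1167 bp. At the long-form start of Mecom, however, islands of 648, 664, 1167, 520 and 401 bp lay next to each other within chr3:30506895-30510470. With islands of at least 500 bp, the longest at a TSS were 3696 bp at Prdm16 and 1943 bp at Mecom. For Prdm6, a factor of smooth muscle, the nearest site was 311 kb away and the longest island at a TSS 3160 bp. For Prdm8, a factor of the nervous system, the nearest site was 110 kb away and the longest island at a TSS 1067 bp. A gene absent from the list had no site that passed the authors' calling, and the occupancy that this leaves undetected is not known because the list holds no depth.

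Each of the 9 listed genes had an island no farther than 1 kb from a TSS, as did 73.4% of all protein-coding genes. Islands here are merged windows of 200 bp in which GC exceeds 50% and the CpG ratio exceeds 0.6. Of 16099 protein-coding genes with such an island, 19% had a promoter site. Among the 16 genes whose island was at least as long as that of Prdm16, 6 had a promoter site (37.5%). Prdm16 itself is counted in the 16.

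Another 5 PRDM genes were looked up for comparison. Prdm9, which positions meiotic recombination, Prdm11, the neuronal genes Prdm12 and Prdm13, and Prdm14, a factor of pluripotency and germ cells, had no site (0 of 5, against 21.5% of all protein-coding genes with a site). Their nearest sites lay 28.1 kb (Prdm9) to 510 kb (Prdm11) from a TSS. Over these 14 PRDM genes, 5 had a promoter site, against 14.0% of all protein-coding genes, and 8 had no site at all. Each of the 8 had an island, as did 73.4% of all protein-coding genes. The longest islands within 1 kb of a TSS were 961 to 1722 bp in the 5 genes with a promoter site and 572 to 3645 bp in the 8 without a site, so the ranges overlapped.

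**Figure D4:**
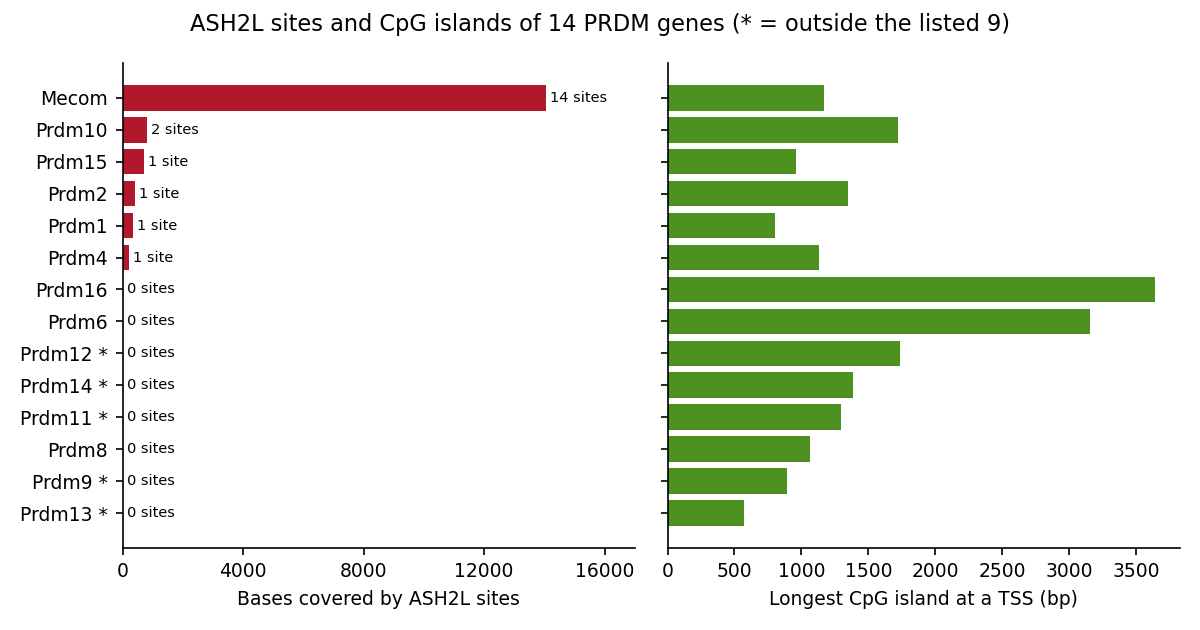
Bases covered by ASH2L sites (left, with the number of sites beside each bar) and length in bp of the longest CpG island within 1 kb of a TSS (right) for 14 PRDM genes, with an asterisk at genes outside the listed 9. Mecom has 14048 covered bases and every other gene shown at most 804, while the longest islands, 3645 and 3160 bp, are at Prdm16 and Prdm6, which have no site.

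Mecom sites were lower in GC at the median than sites of the other listed genes, with overlapping ranges, and sites of 1 gene are not replicates. An island was overlapped by 5 of 14 Mecom sites (35.7%) and by 6 of 6 sites of the other listed genes, compared with 51.9% of all sites. Over the 20 sites the share was 55% (11 sites, 95% Wilson interval 34.2% to 74.2%, covering counting error only and treating sites of 1 gene as separate). With islands of at least 500 bp it was 45%, against 46.7% of all sites, and with the centre of the site in the island 35%, against 48.6%, so whether the listed sites lay above or below all sites depended on the definition. The GC content had a median of 46.7% (35% to 55.5%) in Mecom sites, 73.8% (46.1% to 77.1%) in sites of the other listed genes and 51.1% in all sites. The 9 Mecom sites without an island were 200 to 508 bp wide, with observed to expected ratios of 0 to 0.484, whereas the median of all sites was 0.518. Island bases made up 41.7% of the bases covered at Mecom (5851 bp).

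**Figure D5:**
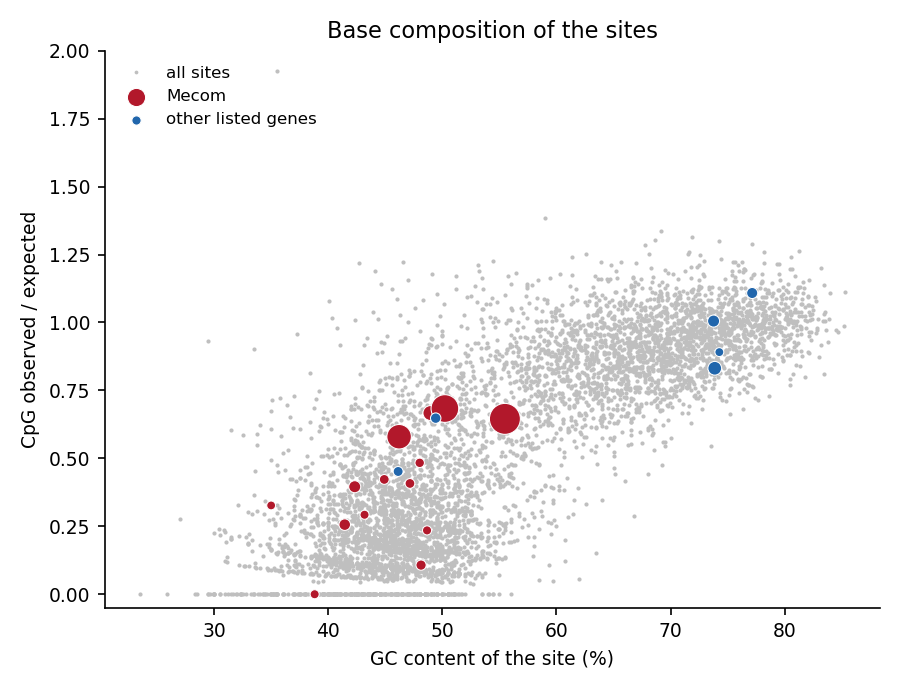
GC content in percent against the ratio of observed to expected CpGs for all sites (grey points), Mecom sites (red) and sites of the other listed genes (blue), with larger coloured symbols for wider sites. Mecom sites lie at 35% to 55.5% GC with ratios up to 0.683, and 4 of the 6 sites of the other listed genes lie above 70% GC.

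Short letter strings of known factors were counted in the sites. In the central 200 bp, on either strand, the SP/KLF string CCCCGCCCC occurred in 1 of the 20 sites (3.03% of all sites) and the NFY string CCAAT in 1 (17% of all sites). The ETS string CCGGAAGT (2.92% of all sites), the E-box CACGTG (2.8%), the CRE TGACGTCA (0.513%) and the AP-1 string TGANTCA (8.21%) occurred in none. Over the whole length of the 20 sites, which differ in width, there were 9 matches to CCAAT, all in Mecom sites, 4 to the SP/KLF string (3 in Mecom sites), 1 each to the ETS string, the E-box and the AP-1 string, and 0 to the CRE. None of these strings contains another. Mecom sites held 85.1% of the bases of the 20 sites, and no whole-length count over all sites is given, so nothing is read from these matches. Of 32851 RefSeq promoter windows of 300 bases, 11.4% held the SP/KLF string, 37.4% CCAAT, 3.89% the ETS string, 7.15% the E-box, 1.79% the CRE and 7.81% the AP-1 string. In the printed windows, the SP/KLF string was present at the long form of Mecom and CCAAT at the short form and at Prdm16. A match is a description of the letters only.

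PRDM proteins work with corepressors, chromatin-modifying enzymes and other transcription factors, and 19 genes of such proteins, among them Smad3, Cebpb, Pparg and Ppargc1a, were looked up alongside. Of these, 4 had a promoter site, against 14.0% of all protein-coding genes, 6 had any site, against 21.5%, and all 19 had an island, against 73.4%. Tle1 and Ppargc1a had a site of 232 and 294 bp, respectively, centred more than 1 kb from a TSS. Ctbp2, a corepressor that binds MECOM and PRDM16, had 3 sites covering 1257 bp, the nearest a 713-bp site 245 bp downstream of a TSS. Kdm1a, which encodes the histone demethylase LSD1, had 2 sites covering 691 bp, the nearest a 402-bp site centred 42.5 bp downstream. Skil and Ski, which encode repressors of SMAD signalling, each had a site, of 254 bp centred 713.5 bp upstream and of 225 bp centred 4 bp upstream. The methyltransferase genes Ehmt1, Ehmt2, Setdb1 and Suv39h1, the deacetylase genes Hdac1, Hdac2 and Hdac3, and Ctbp1, Prmt5, Tle3, Smad3, Cebpb and Pparg had no site. Ctbp2, the partner gene with the most covered bases, was thus far below the 14048 bp of Mecom.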

How the data were processed

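ChIP-seq of ASH2L was carried out by the authors in iMEF cells without dTAG and after 1 h of dTAG, with matching input (8 libraries). Per the study's methods and the submitters' processing notes, reads were trimmed with Trim Galore, aligned to mm10 with BWA and filtered with SAMtools, replicates were merged with Picard, and narrow peaks were called with MACS. Tool versions are not given in the sources used here. The deposited list holds positions only (other values such as signal, counts or p-values are absent), with no column per sample. Depth per sample and precision could not be assessed, and the planned edgeR test of a dTAG effect and its alternatives were not run.

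Starts were read as counted from 0 and are printed counted from 1. The 16 of 6444 sites outside the 21 assembled chromosomes were left out. Gene models came from GENCODE M21, an earlier release than that used in the study, and sequence from GRCm38.p6, the same build. RefSeq promoter windows (GRCm38.p6) existed for 11 of 14 PRDM genes (16 windows). Promoter sites were centred within 1 kb of any TSS, following the window used in the study. CpG islands were computed as merged windows of 200 bp (GC over 50%, ratio over 0.6), or of 500 bp (over 55%, over 0.65) as an alternative. Proteins of the listed genes were not analysed here. The members and gene lists were chosen with earlier results of these data known. Named genes were the 9 listed genes, 5 other PRDM genes, up to 5 partner genes with the widest promoter sites, and the 2 genes next above and next below Mecom by covered bases. A further item of the gene lists is not reported here. Tle1 and Ppargc1a, with a site but no promoter site, and the partner genes without a site are named outside this rule, after their values were seen. Other windows, TSS sets, island definitions and merged sites were tried. Scripts used Python 3.11.15 (pandas 2.3.3, NumPy 2.4.6, SciPy 1.17.1; figures in matplotlib 3.10.9) and were tested on simulated data.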

Additional observations from a re-analysis of the deposited data

How the results depend on the processing

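Of 56 alternative values, 44 stayed within 1.5 times the main count (or within its Wilson interval for a percentage) and 12 did not. This tally is not a measure of robustness, since some values could not change. The nearest site to any of the 5 other PRDM genes, for instance, lay 28.1 kb from a TSS, beyond every window tried. Promoter sites were found at 14.0% of protein-coding genes, and at 12.5% with a window of 500 bp, 15.4% with 3 kb, 19.3% with 10 kb, 12.3% with only the start of each gene and 12.9% without sites of the minimum width. Among listed genes, Prdm10 was lost with a window of 500 bp, Prdm1 was gained with 3 kb, and Mecom was lost when only the start of the gene was used, since the annotated gene begins 32.1 kb upstream of the nearest site. Among the 19 partner genes, 4 with a promoter site became 3 with a window of 500 bp (without Skil), 6 with 3 kb or 10 kb (with Tle1 and Ppargc1a), 5 with any overlap (with Ppargc1a) and 3 with only the start of the gene (without Ctbp2). The 20 sites of the listed genes became 10 when sites within 1 kb were merged, of which 5 belonged to Mecom. The widest merged Mecom site was then 10636 bp and kept rank 4. The rank of Mecom by covered bases went from 6 to 15 when only sites centred within 1 kb of a TSS counted, and to 405 when divided by the length of the searched windows. Its covered bases were 3461 with sites within 1 kb only. Those of Prdm10 were 507 within 1 kb, and Prdm1 had 0 within 1 kb and 0 with protein-coding transcripts only. The share of listed sites overlapping an island, 55%, was 45% with islands of at least 500 bp and 35% by the centre of the site. Both lie within the Wilson interval of the main share. That interval is wide and treats sites of 1 gene as separate, so this does not show stability. The main share was above that of all sites (51.9%), and the alternatives were below it (46.7% and 48.6%).

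No paired analysis was possible because the list carries no column per sample. Leaving out replicates, other normalizations and count filters were not run for the same reason. Whether a site was found in each replicate or only in cells without dTAG cannot be read from the list, and width depends on how the authors joined calls across samples, which was not tested.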

Other observations

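The gap between the sites at the long form of Mecom held a stretch that is also present at Prdm16. This was noticed after the printed windows had been seen and is a description. The stretch is 36 identical bases, at chr3:30509698-30509733 in Mecom and chr4:154636829-154636864 in Prdm16 (minus strand, GRCm38.p6). It occurs at 2 places in the assembled chromosomes, counting both strands, and these are the 2 places. In Mecom its first base is the TSS of Mecom-212, and in Prdm16 it begins 2 bp downstream of a TSS. None of the 36 bases lay in an ASH2L site in either gene, but the 2 genes are not alike in this. In Mecom it rests on the 84-bp gap between neighbouring sites. Merging sites within 1 kb closes this gap, so that 1 merged site (chr3:30505441-30516076) covers the stretch. At Prdm16 the nearest site was 272 kb away. The 24 bases that fall in both printed windows are shown here in lower case, being outside the sites.
Shared by Mecom and Prdm16: gcgcatgtgcgaaggtgtccaaac

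For comparison, the longest stretch shared by RefSeq promoter windows of any other pair of these PRDM genes was 12 bases (median 9, 54 pairs), against 24 for Mecom and Prdm16. Windows of 11 genes were compared.

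The Mecom gene body also held islands without a site. Of 41 islands, 10 overlapped a site, and the longest of the others measured 1630 bp (chr3:30029980-30031609), 16.5 kb from the nearest TSS. With the definition of at least 500 bp there were 4 islands, of which 3 overlapped a site, and the other was again at this place with 1684 bp.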
